A study of Caenorhabditis elegans with 6 samples.

Results

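The abu and pqn genes of Caenorhabditis elegans were followed across whole animals kept in water or in a food colorant. Members were all probe sets whose deposited gene symbol starts with abu- or pqn-, at 1 probe set per symbol. There were 74 of them, 13 abu and 61 pqn, among 27568 named probe sets tested and 29317 in all. The animals were of the wild-type strain N2. Exposure in S medium at 20 °C began 16 to 18 h after hatching and lasted 48 h. The 3 groups were animals in water, in 100 µM Ponceau Red and in 100 µM tartrazine, and all were labelled as young adults of 3 days. Both colorants are synthetic azo dyes. Each group had 2 arrays, described as independent trials and made from 3.5 ng of total RNA each.

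The abu genes were named as a set that is switched on when the unfolded protein response of the endoplasmic reticulum is blocked, and the pqn genes for a prion-like stretch rich in glutamine and asparagine. Many abu genes and a group of related pqn genes encode secreted proteins that build the cuticle lining the pharynx, the muscular feeding organ. That lining is shed and rebuilt at every moult, and the genes are known to be most active shortly before it. Other pqn genes share little beyond the prion-like stretch and include nuclear and cytoplasmic proteins. In the deposited annotation only 5 of the 74 members carry the term pharynx development (abu-6, abu-7, abu-8, abu-14 and abu-15), so the set is called here by its gene names.

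Values are log2 signals per probe set, normalised with RMA by the authors, and differences are log2 differences from a limma fit over all 6 arrays. A gene is said to rise or fall where its Benjamini-Hochberg adjusted p over the 27568 probe sets was under 0.05, and errors are standard errors of the fit with n = 2 arrays per group. The median signal of an array lay between 2.13 and 2.40. Precision is set by the small number of arrays, with a 95% interval that typically extended 0.65 above and below a difference. Each p-value reflects the spread among these arrays alone. Arrays carry the number in their column header, which is 1 or 2 for water and tartrazine, and 2 or 3 for Ponceau Red.

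The Ponceau Red arrays did not resemble each other. Across all probe sets they correlated at 0.844, where the water arrays gave 0.987 and the tartrazine arrays 0.982. The closest match of Ponceau Red array 2 was tartrazine array 2 (r = 0.991), while array 3 stood nearer to the water arrays (r = 0.915 and 0.931). The yolk gene vit-2, a marker of adults, read 1.75 and 2.22 in water, 10.76 and 1.83 in Ponceau Red arrays 2 and 3, and 9.64 and 9.99 in tartrazine. The readings in water and in Ponceau Red array 3 are therefore low for the labelled stage, and the part of stage in the results below was not tested.

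Members spanned most of the range of signals. Readings of single members ran from 0.99 to 9.56, and 51 members had a mean signal above the median of all tested probe sets, 2.34. At the low end, 13 members stayed below the array's own median signal on every array. The lowest 5 by mean were pqn-90, abu-2, pqn-79, pqn-91 and pqn-98, of which pqn-90 read between 0.99 and 1.37 on the 6 arrays. The highest 5 were pqn-59, pqn-44, pqn-52, pqn-83 and pqn-87. The gene pqn-59, related to the human stress granule protein UBAP2L, read 9.16 and 9.19 in water, 9.56 and 9.06 in Ponceau Red, and 9.23 and 9.31 in tartrazine. Its Ponceau Red arrays enclosed those of both other groups. The gene pqn-44, which RefSeq lists as tent-5 and which encodes a poly(A) polymerase, read between 7.73 and 8.79. Levels of different probe sets are not comparable on these arrays, so this order describes readings and not amounts of RNA.

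**Figure D1:**
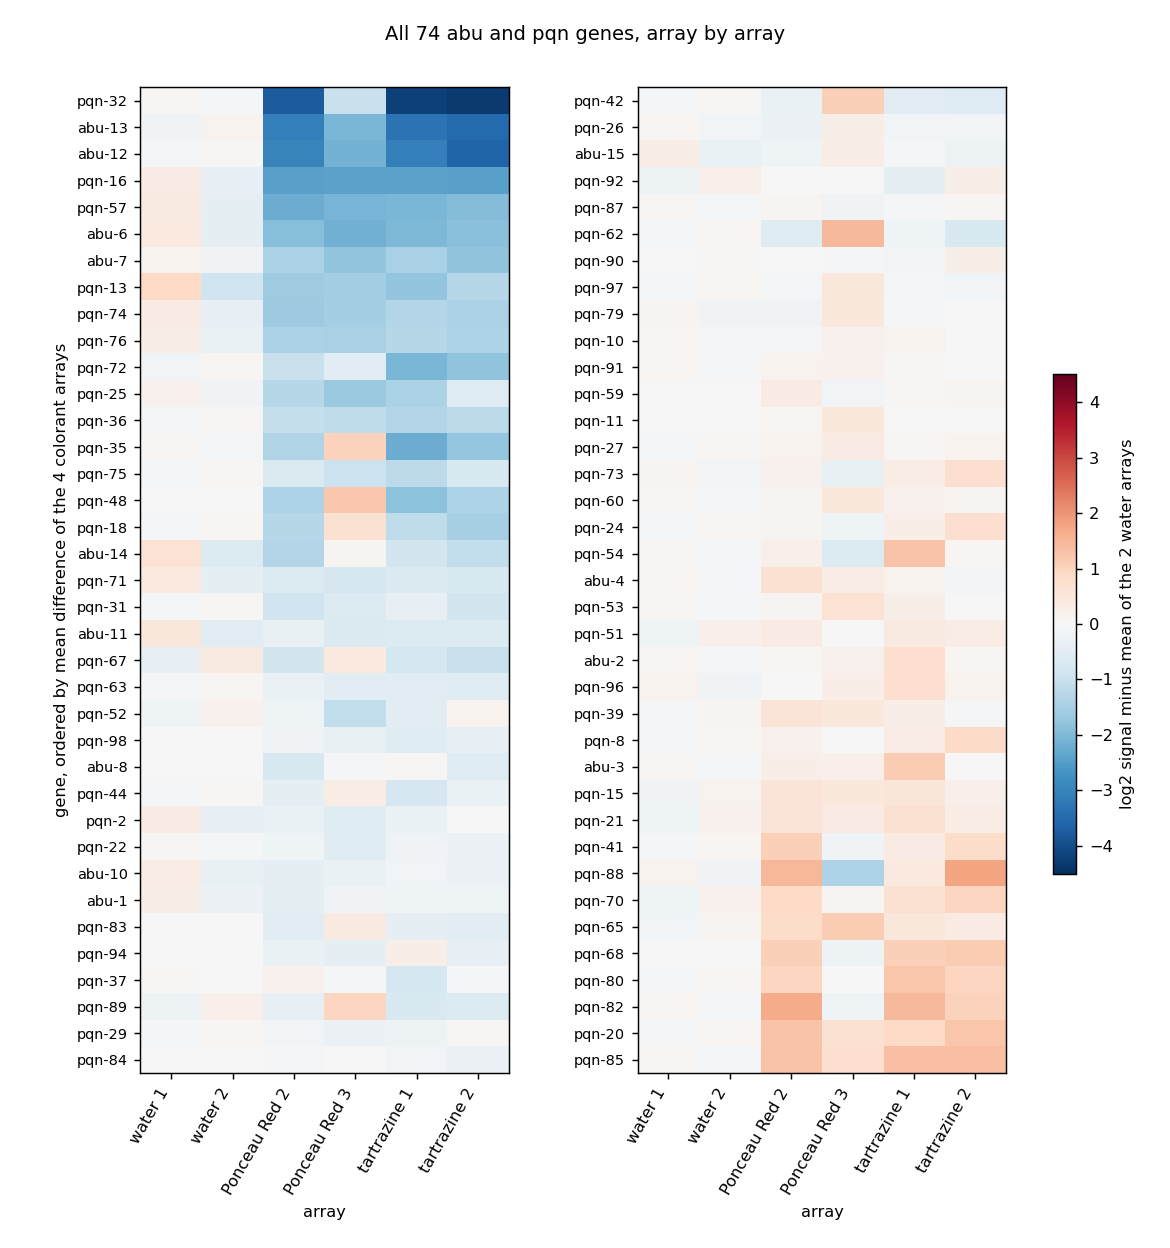
Signal of each of the 74 members on each array, as log2 signal minus the mean of the 2 water arrays (colour bar), with arrays in columns and genes in rows ordered by the mean difference of the 4 colorant arrays. The rows from abu-13 to abu-7 are low in all 4 colorant columns, while pqn-35, pqn-48 and pqn-18 are high in the column of Ponceau Red array 3 and low in the other 3.

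Ponceau Red was set against water to ask which of these transcripts differ in animals given that dye. Among the members, 6 fell and 0 rose: abu-7, abu-12, abu-13, pqn-16, pqn-36 and pqn-57. That is 8.11% of the 74, where 2.75% of all tested probe sets fell and 0.138% rose, or 2.89% in either direction. The share of the members that fell is above that background. Members lay on both sides of 0, with 33 higher and 41 lower than in water, and 17 of the 74 had an unadjusted p under 0.05, as did 4096 of the 27568 probe sets. The median difference over the 74 was -0.04 (-0.18 without Ponceau Red array 3), and 0.06 over all probe sets. In bulk RNA of whole animals, fewer cells of a type and less RNA per cell cannot be told apart.

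The same question was put to tartrazine. Here 8 members fell, abu-6, abu-7, abu-12, abu-13, pqn-16, pqn-36, pqn-57 and pqn-72, and 1 rose, pqn-85. The falls are 10.8% of the members, against 3.86% of all probe sets, and the rise is 1.35%, against 0.519%. In either direction 4.38% of all probe sets passed. At an unadjusted p under 0.05 were 18 of the 74 members and 7896 of the 27568 probe sets, a smaller share of the members. The median difference of the members was -0.15, and 0.02 over all probe sets. With every array centred on its own median the members' medians became 0.19 (Ponceau Red) and 0.05 (tartrazine), where all probe sets gave 0.28 and 0.22, so the sign of both depends on the scaling. Both comparisons use the same water arrays, so genes passing in both are not independent observations.

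Of the abu genes, abu-12 and abu-13 had the largest falls in both comparisons with water. The signal of abu-12 was 6.63 and 6.78 in water, 3.72 and 4.58 in Ponceau Red, and 3.65 and 3.12 in tartrazine. All 4 colorant arrays lay below both water arrays, and Ponceau Red array 3 was the closest to water. The gene fell by 2.56 ± 0.36 in Ponceau Red (5.90-fold, limma adjusted p = 0.0407) and by 3.33 ± 0.36 in tartrazine (limma adjusted p = 0.0188).

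The signal of abu-13 was 5.80 and 6.10 in water, 2.86 and 3.91 in Ponceau Red, and 2.64 and 2.44 in tartrazine. The order of the arrays was that of abu-12, with no overlap between water and either colorant and with Ponceau Red array 3 again nearest to water. It fell by 2.57 ± 0.39 in Ponceau Red (5.92-fold, limma adjusted p = 0.0485) and by 3.41 ± 0.39 in tartrazine (10.6-fold, limma adjusted p = 0.021). Both abu-12 (chromosome X) and abu-13 (chromosome III) carry the annotation defense response, and neither carries pharynx development.

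The neighbours abu-6 and abu-7 are annotated to pharynx development. The signal of abu-6 was 5.41 and 4.55 in water, 3.05 and 2.83 in Ponceau Red, and 2.96 and 3.09 in tartrazine. The 4 colorant arrays lay close together and well below water, whose own arrays were 0.85 apart. It fell by 1.96 ± 0.32 in tartrazine (3.89-fold, limma adjusted p = 0.0481). Its difference of -2.04 ± 0.32 in Ponceau Red did not pass (limma adjusted p = 0.0545), although it is no smaller.

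The signal of abu-7 was 4.26 and 3.92 in water, 2.66 and 2.30 in Ponceau Red, and 2.63 and 2.29 in tartrazine. The groups did not overlap with water, and the colorant readings came near the median signal of their arrays. It fell by 1.62 ± 0.24 in Ponceau Red (3.06-fold, limma adjusted p = 0.0478) and by 1.64 ± 0.24 in tartrazine (3.11-fold, limma adjusted p = 0.0375).

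The other 9 abu genes passed in neither comparison. In abu-14, a gene of the pharyngeal cuticle, the signal was 3.86 and 2.59 in water, 1.90 and 3.34 in Ponceau Red, and 2.38 and 2.10 in tartrazine, with the arrays of water and Ponceau Red both spread by over 1 log2 and overlapping. Its difference was -0.60 ± 0.64 in Ponceau Red and -0.99 ± 0.64 in tartrazine. In abu-15, which lies directly beside abu-6, the signal was 1.88 and 1.28 in water, 1.39 and 1.87 in Ponceau Red, and 1.52 and 1.34 in tartrazine, and the 3 groups overlapped. The gene abu-8, next in that part of chromosome V, read 2.61 and 2.64 in water, 1.91 and 2.52 in Ponceau Red, and 2.67 and 2.06 in tartrazine.

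For abu-1, abu-10 and abu-11 the differences lay between -0.62 and -0.20 in both comparisons. Those of abu-2, abu-3 and abu-4 lay between 0.01 and 0.59. All 6 of these genes carry the annotation of the unfolded protein response, and their limma adjusted p ranged from 0.333 to 0.978. Their intervals reach from -1.59 for abu-11 to 1.63 for abu-3, both in tartrazine, so changes of that size could have gone undetected. Over the 13 abu genes the median difference was -0.41 in Ponceau Red, with 3 falling, and -0.26 in tartrazine, with 4 falling.

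**Figure D2:**
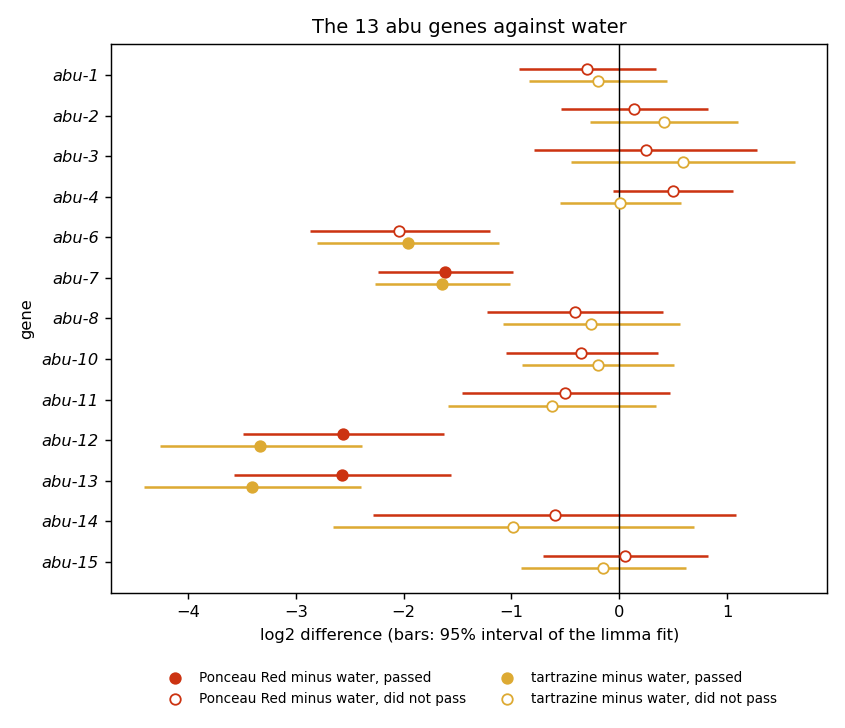
Log2 differences of the 13 abu genes from water, with 95% intervals of the limma fit, for Ponceau Red and tartrazine; filled points passed at an adjusted p under 0.05. The genes abu-6, abu-7, abu-12 and abu-13 lie below -1.6 in both comparisons, and the intervals of the other 9 cross 0.

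Among the pqn genes, pqn-16 had the smallest adjusted p in Ponceau Red. Its signal was 4.42 and 3.69 in water, 1.62 and 1.65 in Ponceau Red, and 1.66 and 1.62 in tartrazine. The 4 colorant readings were level with each other and lay below the median of their arrays. A reading that low bounds the size of the change from below. The gene fell by 2.43 ± 0.28 in Ponceau Red (5.37-fold, limma adjusted p = 0.0235) and by 2.42 ± 0.28 in tartrazine (5.34-fold, limma adjusted p = 0.0215).

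The gene pqn-57, annotated like most abu genes to the unfolded protein response, followed the same pattern. Its signal was 4.83 and 3.98 in water, 2.19 and 2.32 in Ponceau Red, and 2.34 and 2.45 in tartrazine. It fell by 2.15 ± 0.31 in Ponceau Red (4.45-fold, limma adjusted p = 0.0449) and by 2.01 ± 0.31 in tartrazine (4.03-fold, limma adjusted p = 0.0432). As in pqn-16 and abu-6, water array 1 was the highest of the 6 arrays and the colorant arrays were level with each other.

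In pqn-36 the water arrays were closer together. Its signal was 2.75 and 2.85 in water, 1.74 and 1.65 in Ponceau Red, and 1.48 and 1.59 in tartrazine. All 4 colorant readings were below the median of their arrays. It fell by 1.10 ± 0.15 in Ponceau Red (2.15-fold, limma adjusted p = 0.0404) and by 1.26 ± 0.15 in tartrazine (2.40-fold, limma adjusted p = 0.0245).

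The gene pqn-72, annotated to lipid storage, passed in tartrazine and not in Ponceau Red. Its signal was 5.09 and 5.30 in water, 4.20 and 4.72 in Ponceau Red, and 3.15 and 3.39 in tartrazine. The Ponceau Red arrays lay between the other groups without overlapping either. It fell by 1.93 ± 0.24 in tartrazine (3.81-fold, limma adjusted p = 0.0272), and its difference in Ponceau Red was -0.74 ± 0.24 (limma adjusted p = 0.269).

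The member that rose was pqn-85, which RefSeq lists as scc-2, the loader that places the cohesin ring on chromosomes. Its signal was 4.02 and 3.92 in water, 5.26 and 4.74 in Ponceau Red, and 5.33 and 5.32 in tartrazine. All 4 colorant arrays lay above both water arrays, with Ponceau Red array 3 the nearest to them. It rose by 1.35 ± 0.22 in tartrazine (2.56-fold, limma adjusted p = 0.049), and its difference in Ponceau Red was 1.03 ± 0.22 (limma adjusted p = 0.117). Beside it, the median of 20 germ line and oocyte genes was 4.81 and 4.91 above the water mean in the tartrazine arrays, 4.95 in Ponceau Red array 2 and -0.44 in array 3. Their part in the rise was not tested.

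**Figure D3:**
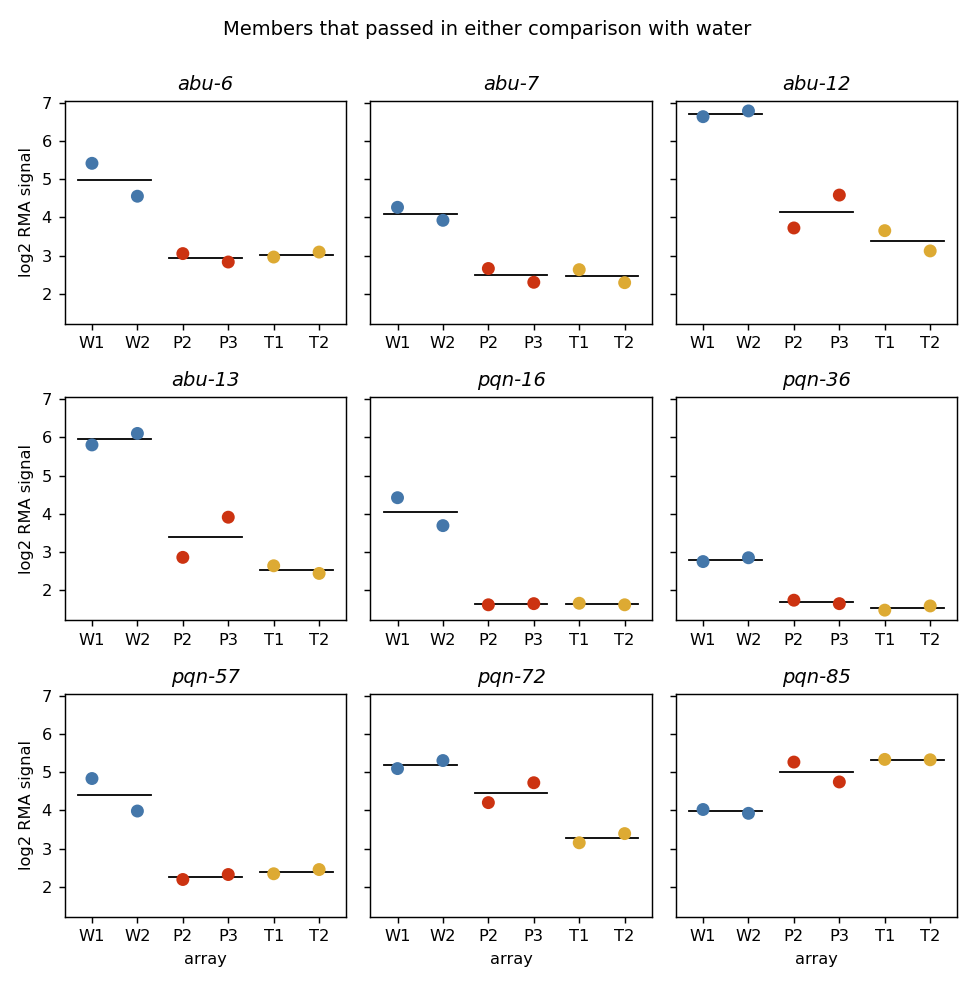
Log2 RMA signal of the 9 members that passed in either comparison with water, on water arrays 1 and 2 (W1, W2), Ponceau Red arrays 2 and 3 (P2, P3) and tartrazine arrays 1 and 2 (T1, T2); points are single arrays and lines are group means. In 8 panels the 4 colorant points lie below both water points, and in pqn-85 they lie above them.

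These calls rest on few arrays. Without water array 1 or without array 2, 0 members passed in limma in either comparison with water, with 11 and 17 at an unadjusted p under 0.05 in Ponceau Red and 12 and 16 in tartrazine. In Ponceau Red the count was also 0 without either tartrazine array (16 at an unadjusted p under 0.05 in each case), which enter it only through the shared estimate of spread. More members passed without Ponceau Red array 2 or without array 3, fits that leave 1 Ponceau Red array. For tartrazine 0 passed without tartrazine array 1 or 2, with 16 and 17 at an unadjusted p under 0.05. More than in the main fit passed without Ponceau Red array 2 or without array 3. The share of all probe sets that passed in these fits is not given here, so the larger numbers do not set the members apart. The differences of the members that passed kept their sign under the alternatives run, each with 12 or 13 values. That of pqn-16 in Ponceau Red ranged from -2.79 to -2.06 with adjusted p from 0.0029 to 0.119, and that of abu-12 in tartrazine from -3.69 to -3.06 with adjusted p from 0.00015 to 0.163.

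Array by array, 19 members had all 4 colorant readings below both water readings, which is 25.7% of the members and 18.5% of all probe sets. A gap of at least 1 log2 between these readings was found for 7 members, 9.46%, against 4.32% of all probe sets. They were abu-6, abu-7, abu-12, abu-13, pqn-16, pqn-36 and pqn-57. In the other direction 8 members, 10.8%, read above both water arrays on all 4 colorant arrays, where 17.6% of all probe sets did. These were abu-2, pqn-15, pqn-20, pqn-21, pqn-27, pqn-60, pqn-65 and pqn-85.

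Among the 19 were 2 genes, here chosen after their values were seen, that narrowly missed the threshold. The signal of pqn-74 was 4.18 and 3.42 in water, 2.16 and 2.26 in Ponceau Red, and 2.47 and 2.37 in tartrazine, with differences of -1.59 ± 0.29 and -1.38 ± 0.29 (limma adjusted p = 0.0767 and 0.0741). The signal of pqn-76 was 3.10 and 2.50 in water, 1.36 and 1.33 in Ponceau Red, and 1.53 and 1.42 in tartrazine, with differences of -1.46 ± 0.24 and -1.33 ± 0.24 (limma adjusted p = 0.0638 and 0.0601). In both genes water array 1 was the highest reading.

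The water arrays themselves differed in a number of these genes. With a gap of 0.5 log2, a size chosen after the values were seen, 14 members (18.9%) differed between the water arrays, against 10.5% of all probe sets. Array 1 was the higher in 13 of the 14: abu-1, abu-6, abu-10, abu-11, abu-14, abu-15, pqn-2, pqn-13, pqn-16, pqn-57, pqn-71, pqn-74 and pqn-76. The exception was pqn-67. Of all probe sets, 5.87% were at least 0.5 higher in water array 1. The widest gap was that of pqn-13, whose signal was 4.97 and 3.19 in water, 2.47 and 2.55 in Ponceau Red, and 2.29 and 2.79 in tartrazine. At least 1 log2 between the water arrays was found for 3 members (4.05%, against 1.64% of all probe sets), pqn-13, abu-11 and abu-14. The 4 colorant arrays of pqn-13 lay below both water arrays, yet its differences of -1.57 ± 0.62 and -1.55 ± 0.62 did not pass (limma adjusted p = 0.347 and 0.185).

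The 12 members annotated to the unfolded protein response read higher in water array 1 in 11 cases, with a median gap of 0.57. Over all probe sets water array 1 was the higher for 48.3%, with a median gap of -0.01, and over the 61 pqn genes for 27. The members share sequence and the same arrays, so these counts only describe the water arrays.

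Ponceau Red array 3 was the lowest array more often in members than in all probe sets, and the highest about as often. That array was the highest of the 6 in 19 members (25.7%, against 25.5% of all probe sets). It was the lowest of the 6 in 19 members (25.7%, against 15.2% of all probe sets). In 11 members (14.9%, against 9.84% of all probe sets) array 3 was the highest of the 6 arrays while the other 3 colorant arrays lay below both water arrays. They were pqn-18, pqn-26, pqn-35, pqn-42, pqn-44, pqn-48, pqn-62, pqn-67, pqn-83, pqn-89 and pqn-97, with 0 abu genes among them. The signal of pqn-48 was 7.22 and 7.17 in water, 5.81 and 8.42 in Ponceau Red, and 5.35 and 5.82 in tartrazine. Its Ponceau Red arrays lay on either side of water, so the group difference was -0.08 ± 0.87. Without Ponceau Red array 3 it was -1.38 (limma adjusted p = 0.0108), and without array 2 it was 1.23 (limma adjusted p = 0.0346), the opposite direction.

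The largest gap with Ponceau Red array 3 above array 2 was that of pqn-32, listed by RefSeq as dbd-8. Its signal was 7.66 and 7.56 in water, 3.86 and 6.62 in Ponceau Red, and 3.42 and 3.32 in tartrazine. Ponceau Red array 2 lay near the tartrazine arrays and array 3 was nearer to water, though below it. Its difference of -4.23 ± 0.90 in tartrazine was the largest of any member and did not pass (limma adjusted p = 0.0779). Without either Ponceau Red array it did (limma adjusted p = 4.24e-05), at the same size. In Ponceau Red its difference was -2.37 ± 0.90 (limma adjusted p = 0.335).

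The widest gap of all was that of pqn-88, in the other direction. Its signal was 3.48 and 3.17 in water, 4.80 and 1.93 in Ponceau Red, and 3.75 and 5.10 in tartrazine. Ponceau Red array 3 was the lowest and tartrazine array 2 the highest, and its arrays within each colorant were over 1 log2 apart. In tartrazine such a gap was found for 3 members (4.05%, against 2.9% of all probe sets), pqn-88, pqn-54 and abu-3. Together with pqn-41, pqn-68 and pqn-82 it made up the 4 members at least 1 log2 lower in Ponceau Red array 3 than in array 2, which is 5.41% of members and 12.3% of all probe sets. The polyglutamine protein PQN-41 acts in the death of the linker cell, and pqn-68 is described as a tRNA deacylase in the deposited annotation. The opposite gap of at least 1 log2 was found for 10 members, 13.5%, against 11.6% of all probe sets.

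**Figure D4:**
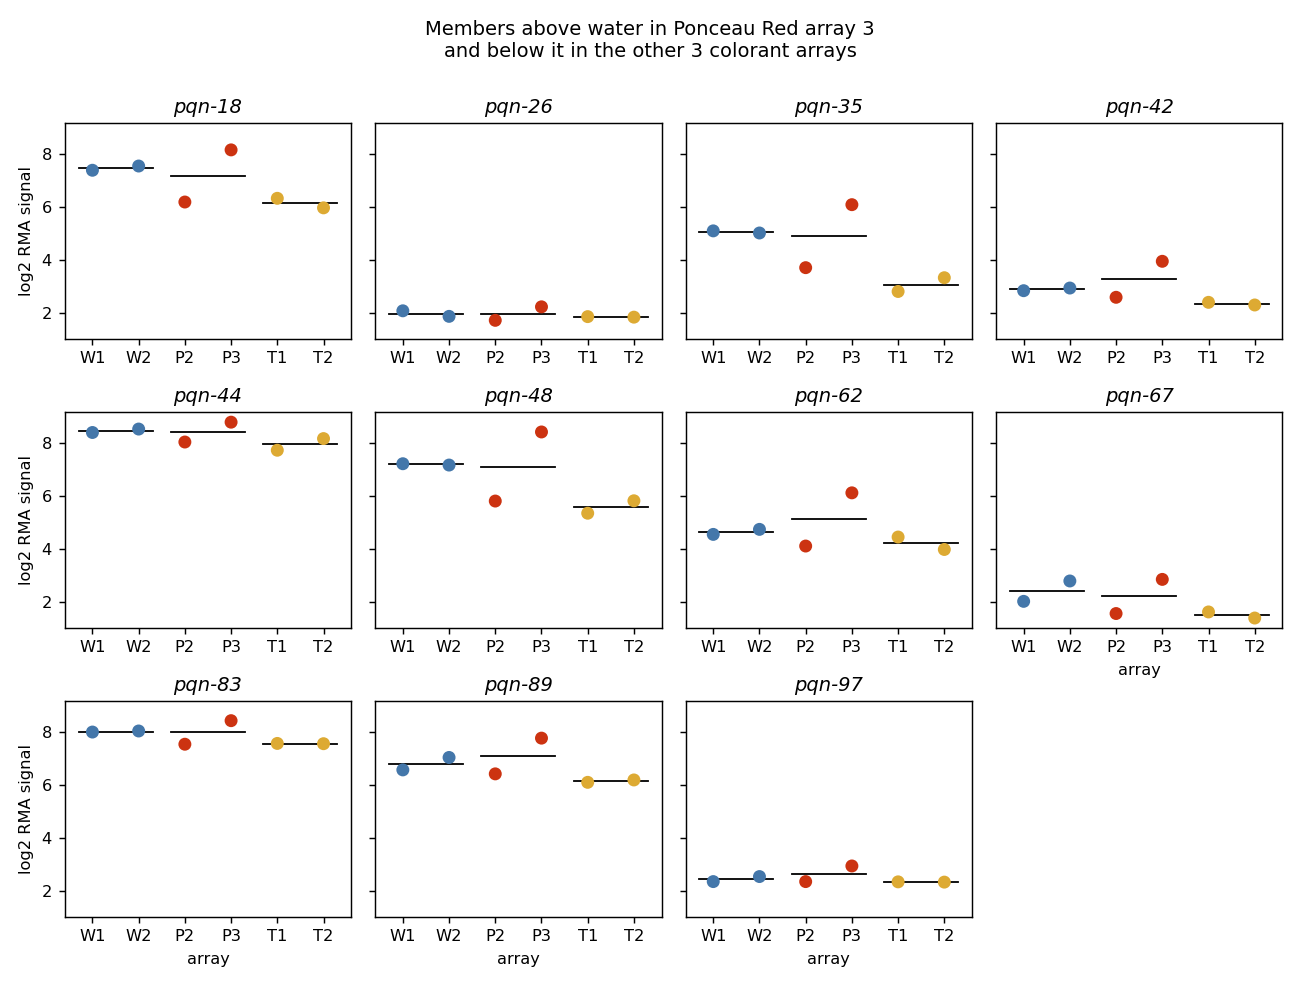
Log2 RMA signal on the 6 arrays (W1 and W2 water, P2 and P3 Ponceau Red, T1 and T2 tartrazine) of the 11 members in which Ponceau Red array 3 was highest and the other colorant arrays lay below water; lines are group means. In pqn-48 the P3 point is at 8.42 and the P2 point at 5.81, on either side of water.

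Some members read nearly level. The pqn genes with the smallest F statistic over the 3 groups were pqn-87, pqn-92 and pqn-10. Of these, pqn-10 read between 1.47 and 1.75, below the median signal of every array, so its level readings say little about its RNA. The signal of pqn-87 was 7.85 and 7.75 in water, 7.93 and 7.64 in Ponceau Red, and 7.71 and 7.89 in tartrazine. Its groups overlapped fully, and its differences from water were -0.01 ± 0.18 and 0.00 ± 0.18, with intervals of -0.49 to 0.47 and -0.47 to 0.48. The gene pqn-51, annotated to transcription initiation by RNA polymerase II and chosen after its values were seen, read between 3.25 and 3.85 on the 6 arrays, with 0.18 ± 0.23 and 0.37 ± 0.23.

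The comparison of Ponceau Red with tartrazine, at the same dose and time, asks where the colorants differ. Of 74 members 0 passed in limma, as did 0% of all probe sets, while 2 members, and 1243 of all tested, had an unadjusted p under 0.05. The 2 were pqn-72, higher in Ponceau Red by 1.19 ± 0.24 (interval 0.56 to 1.83), and pqn-65, higher by 0.55 ± 0.20 (interval 0.03 to 1.07), each with limma adjusted p = 0.681. The median difference of the members was 0.01. Both Ponceau Red arrays lay above both tartrazine arrays in 18 members (24.3%, against 18.7% of all probe sets), and below them in 9 (12.2%, against 16.8%).

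For the genes that fell under both colorants the difference between the colorants was small in some and poorly bounded in others. It was -0.01 for pqn-16 (interval -0.73 to 0.71), 0.02 for abu-7 (-0.60 to 0.65), -0.14 for pqn-57 (-0.96 to 0.68) and 0.16 for pqn-36 (-0.24 to 0.56). It was 0.77 for abu-12 (-0.17 to 1.70) and 0.84 for abu-13 (-0.16 to 1.85), where both Ponceau Red arrays read higher than both tartrazine arrays. These intervals do not show that the colorants act alike. Members passed without Ponceau Red array 2, a fit that leaves 1 Ponceau Red array, and did not without any other single array. The share of all probe sets that passed in that fit is not given here.

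Of all probe sets 2.75% fell in Ponceau Red and 3.86% in tartrazine, and the classes by annotation are small beside that total. Of these, 2 of the 12 members of the unfolded protein response fell in Ponceau Red and 3 in tartrazine. Of 10 members annotated to defense response 3 and 4 fell, and of the 5 annotated to pharynx development 1 and 2. Of 7 members annotated to determination of adult lifespan 0 passed in either comparison in limma, with 1 at an unadjusted p under 0.05 in each. These classes overlap, and the 36 members with no annotated process gave 2 falls in each comparison, pqn-16 and pqn-36.

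The members lie on all 6 chromosomes, 22 of them on chromosome V. In the gene order of RefSeq assembly WBcel235, abu-15, abu-6 and abu-7 stand side by side with 0 coding genes between them, and abu-8 follows after 6 more. The falls of abu-6 and abu-7 thus lie beside abu-15 and abu-8, which did not pass. The pairs abu-1 and pqn-2, and pqn-90 and pqn-91, are also direct neighbours, and all 4 genes had differences between -0.41 and 0.18. Paralogs of this family share sequence, so that a probe set can take up RNA of a relative. The deposited annotation marks 0 of the 74 for cross-hybridisation.

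Other genes of the pharynx were described from lists drawn up with earlier results of these data known. Their counts stand beside the 2.75% of all probe sets that fell in Ponceau Red and the 3.86% that fell in tartrazine. Of 27 genes of the pharyngeal cuticle and lumen 0 passed in Ponceau Red in limma, with 4 at an unadjusted p under 0.05, and 2 fell in tartrazine, with a median of -0.29 in both. Those that fell were nas-7, an astacin protease (-1.90 ± 0.28, limma adjusted p = 0.0392), and nep-1, a neprilysin peptidase (-1.59 ± 0.26, limma adjusted p = 0.0494). Of the 27, only 5 had a mean signal above the median of all probe sets. All 5 were lower than water in Ponceau Red, with a median of -1.06. In tartrazine 4 of them were lower and 1 higher, with a median of -0.69. The low readings of the rest leave little room for a fall. Of 9 pharyngeal gland genes 1 fell under each colorant, phat-4, by 1.44 ± 0.22 and 1.33 ± 0.22 (limma adjusted p = 0.0497 and 0.0481). The gland median was -0.31 in Ponceau Red, with 2 genes higher and 7 lower than in water. In tartrazine it was -0.1, with 4 higher and 5 lower. The gland gene phat-7 read 6.04 and 5.09 in water, 6.40 and 2.30 in Ponceau Red, and 6.78 and 6.33 in tartrazine. Of 10 regulators of pharynx development 0 passed in Ponceau Red, with 3 at an unadjusted p under 0.05, and 1 fell in tartrazine, peb-1, by 2.45 ± 0.33 (limma adjusted p = 0.031). The regulators' medians were -0.36 and -0.16, and 4 of the 10 had a mean signal above the median of all probe sets. The regulator gene pha-4 read 6.18 and 6.56 in water, 3.84 and 7.64 in Ponceau Red, and 3.72 and 3.44 in tartrazine. Its difference in tartrazine was -2.79 ± 1.25 (limma adjusted p = 0.22). Over the 4 arrays of water and tartrazine alone, 4, 3 and 3 genes of these lists fell and 1, 1 and 0 rose.

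The 7 pharyngeal muscle genes had medians of -1.0 and -0.99. The pharyngeal myosin gene myo-1 fell by 1.64 ± 0.21 and 1.31 ± 0.21 (limma adjusted p = 0.0306 and 0.0435). A second pharyngeal myosin gene, myo-2, fell by 1.0 ± 0.15 in Ponceau Red (limma adjusted p = 0.0452). With every array centred on its median 0 of the 7 passed under either colorant, with 4 at an unadjusted p under 0.05 in each. Without Ponceau Red array 2 or array 3, 5 of them fell in Ponceau Red and 4 in tartrazine. By array, their median stood at -1.24 and -1.64 from the water mean in Ponceau Red arrays 2 and 3. In the tartrazine arrays it stood at -1.19 and -0.78. The median was thus low in both Ponceau Red arrays, as were abu-6, abu-7, pqn-16 and pqn-57. So were the moulting genes rol-6 and sqt-1, given below. The part of pharyngeal muscle in the members' falls was not tested. Single genes of the list did not all follow it. The gene tni-4 read 4.51 and 5.22 in water, 5.6 and 2.78 in Ponceau Red, and 5.91 and 5.46 in tartrazine. In Ponceau Red array 3, mlc-1 read 7.56 (7.87 and 7.72 in water) and mlc-2 read 10.22 (10.23 and 9.94 in water). By group difference all 7 were lower than water in Ponceau Red, and 6 of the 7 in tartrazine.

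Genes of the moulting cycle were among those that fell. Of 25 measured, 2 fell in Ponceau Red, the cuticle collagen genes rol-6 (-3.33 ± 0.17, limma adjusted p = 0.00515) and sqt-1 (-3.50 ± 0.32, limma adjusted p = 0.0135). In tartrazine 4 fell, those and lin-42 and qua-1. In Ponceau Red arrays 2 and 3 rol-6 read 3.46 and 3.41, against 6.83 and 6.7 in water. There sqt-1 read 3.36 and 2.96, against 6.89 and 6.42 in water. Both genes were thus low in array 3, where the median of the list was near water. Of all probe sets, 2.75% fell in Ponceau Red and 3.86% in tartrazine. The counts followed the arrays used: in Ponceau Red 7 fell and 3 rose without array 2, and 14 fell and 2 rose without array 3. In tartrazine 19 fell and 2 rose without either Ponceau Red array or over the 4 arrays alone. The list's median was -0.81 and -1.59, and by array it was -1.15 and -0.09 in Ponceau Red arrays 2 and 3, and -1.83 and -1.53 in tartrazine. The part of the moulting cycle in the falls of the abu and pqn genes was not tested.

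Of 21 genes of the unfolded protein response itself 0 passed in either comparison in limma, with 2 at an unadjusted p under 0.05 in Ponceau Red and 9 in tartrazine. In tartrazine 11 fell and 1 rose without either Ponceau Red array, or over the 4 arrays alone. In Ponceau Red 7 fell without array 3, and 2 rose without array 2. Their median was -0.76 in tartrazine and -0.11 in Ponceau Red, where it stood at -0.57 in array 2 and 0.35 in array 3, so its sign rests on the array. The chaperone gene hsp-4, a standard reporter of that response, read 4.55 and 4.61 in water, 4.55 and 6.74 in Ponceau Red, and 4.23 and 4.43 in tartrazine, so Ponceau Red array 3 alone stood apart. Of 9 genes of apoptotic engulfment, which include the receptor gene ced-1 that abu expression depends on, 0 passed in limma, with 3 and 5 at an unadjusted p under 0.05. Their medians were 0.71 and 0.31. Without array 3, 3 rose and 1 fell in Ponceau Red, and without either Ponceau Red array 4 rose and 1 fell in tartrazine.

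Markers of other tissues were read on the same arrays. The 6 yolk genes had a median 8.71 and 0.03 above the water mean in Ponceau Red arrays 2 and 3, and 7.57 and 8.25 in tartrazine. Of these 6 and the 20 germ line and oocyte genes 0 passed in limma, with 0 and 1 at an unadjusted p under 0.05 in Ponceau Red and 6 and 15 in tartrazine. All 6 and all 20 rose in Ponceau Red without array 3, as they did in tartrazine without either Ponceau Red array. Of 8 sperm genes 1 rose in tartrazine, spe-11, by 2.28 ± 0.32 (limma adjusted p = 0.0335), and 6 did without either Ponceau Red array. Of 7 body wall muscle, 7 intestinal and 8 neuronal genes 0 passed in limma in either comparison with water, with at most 4 of a list at an unadjusted p under 0.05, and their medians in tartrazine were -0.53, -1.18 and -0.79. Without either Ponceau Red array 3, 5 and 4 of them fell in tartrazine. Their part in the members' differences was not tested. The calls made for listed genes over 6 arrays ended without water array 1 or without array 2. Counts of listed genes in fits with fewer arrays stand without the share of all probe sets in the same fit.

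**Figure D5:**
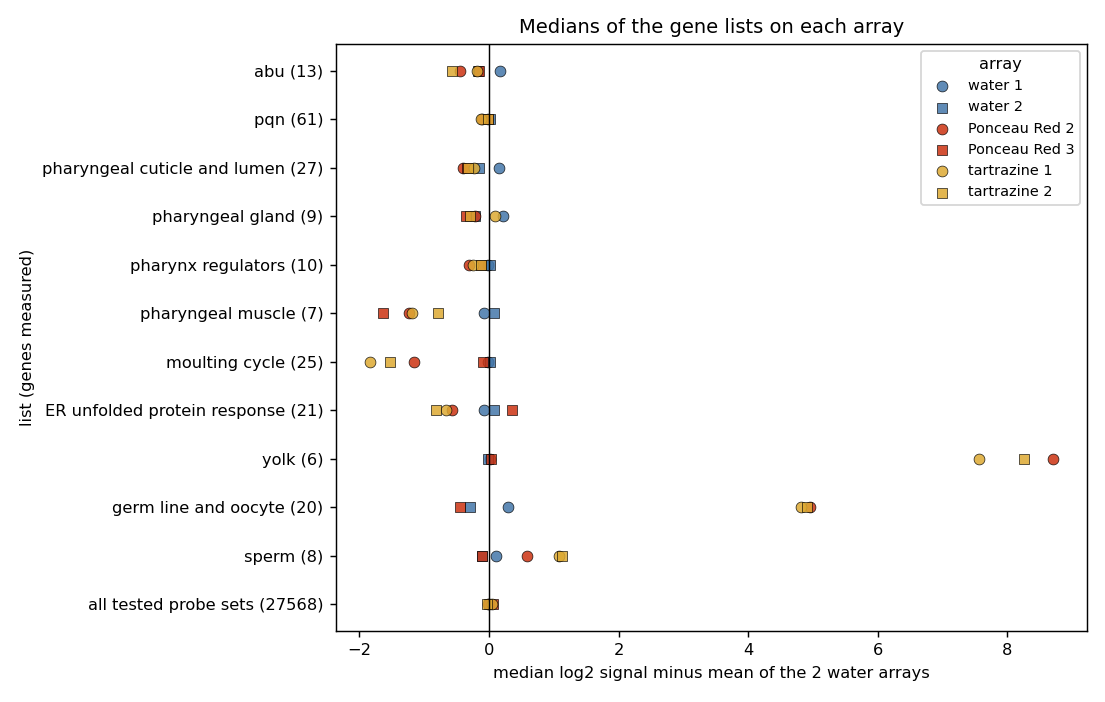
Median over each gene list of log2 signal minus the mean of the 2 water arrays, 1 point per array (circle and square for the arrays of a group), with the number of genes measured in brackets. The moulting list stands at -1.15 in Ponceau Red array 2 and -0.09 in array 3, while the pharyngeal muscle list is below -0.7 on all 4 colorant arrays.

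The authors' deposited table for Ponceau Red lists all 29317 probe sets and so all 74 members. That for tartrazine lists only 1746 probe sets, with 7 members among them: pqn-36, pqn-42, pqn-68, pqn-70, pqn-72, pqn-80 and pqn-83. The absence of a member from that shorter table is not read as a result. In the authors' deposited table abu-12 had a ratio of 0.315 of Ponceau Red over control, where the 6 arrays used here give 0.17. For pqn-16 the ratio in the authors' deposited table was 0.316, against 0.186 here, and for abu-7 it was 0.532, against 0.326. All 6 members that fell in Ponceau Red, and both of those in the tartrazine table that fell here, had a smaller change in the authors' deposited tables. The sums of squares in the authors' deposited tables fit groups of 3 and 2 arrays, and which group held the further array is not known here.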

How the data were processed

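The authors deposited a table of log2 signals per probe set over 6 arrays, made with RMA per the submitters' processing notes, and a second table of log2 RMA signals by labelled sample. For the RMA version, annotation release and genome build the entry is: not given in the sources used here. From the analysis of variance tables that the authors deposited for each dye, the linear ratio (fold) and the sums of squares (scores) were read. Samples were grouped by title.

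Tests covered the 27568 probe sets with a gene name, of 29317. Names came from RefSeq (assembly WBcel235) by accession for 24021, by symbol for 3301 and from the deposited table alone for 246. All 74 members matched, 56 by accession and 18 by symbol, and 6 of them have another symbol in RefSeq. All 6 arrays entered 1 fit in limma 3.58.1 (R 4.3.3; lmFit, eBayes, 3 residual and 1.79 prior degrees of freedom), two-sided, Benjamini-Hochberg adjusted over all 27568, with no filter on low signal. The script was tested on simulated data.

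Column headers number the arrays. Within each group they were matched to labelled trials by value (r of at least 0.92), which put Ponceau Red arrays 2 and 3 in trials 1 and 2. Differences between trials correlated at 0.05 (water and Ponceau Red), 0.16 (water and tartrazine) and -0.03 (Ponceau Red and tartrazine). The wide gap between the Ponceau Red arrays limits what these correlations can show. Trial numbers were not taken as pairs in the main fit, because header numbers are not known to be the labelled trials.

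The text names all abu genes, the pqn genes that passed, the 5 members of highest and 5 of lowest mean, the 3 pqn genes of smallest F and the 3 members of widest Ponceau Red spread. Other members are named as counts or as chosen after their values were seen. Members and lists were chosen with earlier results of these data known. Alternatives tried were centring, the second table, the trial as a block, fewer arrays, a filter on signal, an intensity trend and leaving out each array. Protein and promoter sequences were not used here.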

Additional observations from a re-analysis of the deposited data

How the results depend on the processing

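Calls of members depended on the arrays and the fit. In Ponceau Red against water the 6 calls became 1 with each array centred on its median, 3 with the second deposited table, 0 with the labelled trial as a replicate block, 0 with the second table and the block, and 0 over the 4 arrays compared alone. Leaving out 1 array gave 0 to 22. In tartrazine against water the 9 calls became 2 with the replicate block, abu-7 and pqn-72, and 22 over the 4 arrays compared alone. Leaving out 1 array gave 0 to 22. The second table gave 13, or 8 with the block. Ponceau Red against tartrazine gave 0 to 16 with 1 array left out. These counts are given without the share of all probe sets that passed under the same setting, so they do not set the members apart. The trial numbers are not known to pair arrays, so it cannot be told whether a call lost under the block is a weaker effect. The members' median moved from -0.04 to 0.19 in Ponceau Red with centring. With the second table, with or without the block, it moved from -0.15 to -0.45 in tartrazine (all probe sets -0.24) and from 0.01 to 0.27 between the colorants (all probe sets 0.24). The Ponceau Red difference of pqn-48 turned from -0.08 to 1.23 without array 2, and was -1.38 without array 3. Of the settings tried for single named genes, 987 left direction and side of the threshold as they were, 106 ended a call and 22 made one. Most of the 987 belong to genes and comparisons with no call to lose. Each call against water was kept in only 3 to 8 of its 12 or 13 alternatives. The direction turned in 96 where the gene passed in neither fit, from a difference of 1.06 or less in size, and in 1 that passed, that of pqn-48. The cause was not tested. The smallest difference called in a member was -1.10, and larger ones such as that of pqn-76 did not pass. Readings near the array medians bound a fall from below. The files give no detection call.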
